A study of Mus musculus with 20 samples.

Results

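Broad domains of H3K27ac, the histone acetylation found at active promoters and enhancers, were described in the developing mouse face. A broad domain was any stretch in which a single called peak was at least 10 kb wide in at least 1 library, with overlapping peaks of this size merged across libraries. The rule used peak width alone, so widths are given below as descriptions and carry no test. Of 144852 peaks in 10 libraries, 373 (0.258%) met it, and they merged into 143 domains, against 42346 merged regions of any width. The domains fell within 142 of those regions. All embryos were wild type and each tissue was analysed as mixed cells, with 1 library per tissue and stage. The 4 tissues of e11.5 were the medial and the lateral nasal plate, the mandibular process and the maxillary process, and the 3 tissues of each later stage (e13.5, e15.5) were nose, mandibular process and maxillary process. The strain and the number of embryos behind a library are not given in the sources used here.

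Acetylated nucleosomes usually lie in short islands of a few nucleosomes around a promoter or an enhancer. At some genes the islands run together into an unbroken stretch that covers the promoter, the gene body and neighbouring enhancers. Such stretches are known from many tissues at genes that define the identity of a cell, which in the face are largely regulators of the cranial neural crest, the embryonic cell population that forms most facial cartilage, bone and connective tissue. The mandibular process forms the lower jaw, the maxillary process the upper jaw and the palate, and the nasal plates the nose.

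A few sequences show what lay within these domains. The promoters below are the 250 bases before the GENCODE M21 5′ end of 5 genes on which the results turn, read from the RefSeq sequence of GRCm38.p6 (mm10) on the strand of the gene, with each CG dinucleotide in capitals. They are shown because the rule did not use CG content. How CG content differed with the width of a region depended on whether the region held a coding start site, as given below. Twist1, Tbx2 and Hand2 encode regulators of facial mesenchyme, Alx1 a regulator of the midface and Col1a1 the main chain of type I collagen.
Twist1 (chr12:33957421-33957670, plus strand): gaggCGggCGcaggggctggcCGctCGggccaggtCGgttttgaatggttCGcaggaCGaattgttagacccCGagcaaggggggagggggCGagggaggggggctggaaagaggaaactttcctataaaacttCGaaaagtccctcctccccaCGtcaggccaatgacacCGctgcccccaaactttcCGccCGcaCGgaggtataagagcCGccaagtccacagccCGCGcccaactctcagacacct
Tbx2 (chr11:85832301-85832550, plus strand): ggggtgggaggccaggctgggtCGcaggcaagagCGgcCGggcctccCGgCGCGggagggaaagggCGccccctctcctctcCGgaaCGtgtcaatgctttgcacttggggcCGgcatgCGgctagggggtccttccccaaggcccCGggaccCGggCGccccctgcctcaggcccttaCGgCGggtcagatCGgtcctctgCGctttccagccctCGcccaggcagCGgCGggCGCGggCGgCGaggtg
Hand2 (chr8:57320733-57320982, plus strand): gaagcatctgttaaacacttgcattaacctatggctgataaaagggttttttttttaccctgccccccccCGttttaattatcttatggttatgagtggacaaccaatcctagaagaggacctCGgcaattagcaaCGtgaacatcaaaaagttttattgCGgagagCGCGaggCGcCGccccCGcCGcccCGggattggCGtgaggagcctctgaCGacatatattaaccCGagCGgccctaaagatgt
Alx1 (chr10:103030216-103030465, minus strand): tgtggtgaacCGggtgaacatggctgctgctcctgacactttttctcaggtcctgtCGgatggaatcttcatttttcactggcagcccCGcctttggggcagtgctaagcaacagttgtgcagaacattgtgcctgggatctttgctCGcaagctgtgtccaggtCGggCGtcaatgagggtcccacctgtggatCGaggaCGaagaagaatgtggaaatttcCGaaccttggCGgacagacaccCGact
Col1a1 (chr11:94935974-94936223, plus strand): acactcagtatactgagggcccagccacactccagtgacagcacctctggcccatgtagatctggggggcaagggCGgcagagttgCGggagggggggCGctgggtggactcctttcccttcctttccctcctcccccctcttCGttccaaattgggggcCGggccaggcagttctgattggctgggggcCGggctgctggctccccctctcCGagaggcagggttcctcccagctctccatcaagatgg
The Tbx2 promoter held 25 CG dinucleotides, Twist1 18, Hand2 15, Alx1 11 and Col1a1 7. Over 32851 mouse promoters of the same length from RefSeq (GRCm38.p6), the median was 6, and 92.1% held at least 1. Over the 82 domain genes whose annotated 5′ end lay inside their domain, the median was 14 (quartiles 8 and 21). CG counts of Tbx2 and Twist1 thus lay above the upper quartile of all promoters (16), and that of Col1a1 near the median.

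Some of the widest domains held a miRNA gene, and their mature sequences are shown to identify them. GENCODE annotates 13 miRNA genes in 10 of the domains, and 7 of the 13 have mature sequences in RefSeq (GRCm38.p6). The arms below come from the domains at Dnm3, Wwp2, Sorl1 and Camk1g, with the seed (bases 2 to 8, by which a miRNA recognises its targets) in capitals.
miR-199a-5p: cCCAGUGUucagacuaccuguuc
miR-199a-3p: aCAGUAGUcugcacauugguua
miR-214-3p: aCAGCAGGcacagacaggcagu
miR-140-3p: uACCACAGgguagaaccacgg
miR-125b-5p: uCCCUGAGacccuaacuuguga
miR-205-5p: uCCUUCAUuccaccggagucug
No seed was shared among the 13 mature sequences found, which had 13 different seeds.

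The 10 libraries differed in how many broad domains they showed. Peaks of 10 kb or more numbered between 14 and 37 in the 4 libraries of e11.5 and between 24 and 78 in the 3 of e13.5, and the e15.5 libraries labelled nose, mandibular and maxillary had 7, 72 and 56. The lists themselves ranged from 6571 to 25941 peaks, and wide peaks made up between 0.0906% and 0.363% of a list. Sequencing depth is unknown, so a width of 0 means only that the list had no peak there. All 3 samples of e15.5 carried peak names of another tissue than their label. The names read nose for the sample labelled mandibular, md for that labelled maxillary and mx for that labelled nose. Whether the labels or the names are right was not settled here. They are called by their label here, as the library labelled nose, mandibular or maxillary. Widths at several domains went against those labels. The Hand2 domain, which elsewhere was called only in mandibular libraries, had 29625 bp in the e15.5 library labelled maxillary and no peak in those labelled mandibular and nose. The Alx1 domain, 27199 bp wide in the e13.5 nose, had 27009 bp in the e15.5 library labelled mandibular and 4949 bp in that labelled nose. Over the 143 domains, widths in the e15.5 library labelled mandibular had a Spearman correlation of 0.49 with the e13.5 nose, 0.14 with the e13.5 mandibular process and 0.19 with the e13.5 maxillary process. Widths in the e15.5 library labelled maxillary had 0.02, 0.62 and 0.46 with the same libraries, and those in the library labelled nose had 0.21, 0.62 and 0.62. These correlations are across domains that were chosen on the same widths. The e15.5 libraries were therefore used as a set for stage and left out of the comparison of regions. By the same rule without them, 104 domains were found. Among the marker lists, start sites with a peak numbered 0 of 39 for Hox genes and 0 of 11 for blood genes in each of the 10 libraries, against 13 to 20 of 20 for housekeeping genes.

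Over all domains the widest peak had a median of 12268 bp and reached 29625 bp. Just inside the threshold were the domains at Gsn (10031 bp, the actin-severing protein gelsolin), Dusp6 (10032 bp, a phosphatase of the FGF pathway) and Prickle1 (10057 bp, of planar cell polarity). Just outside it were regions at Tns2 (9988 bp), Lrp1 (9977 bp) and Nab2 with Nemp1 (9942 bp). Since 1236 regions had a widest peak of 5 to 10 kb, the threshold cuts a continuous range of widths. No domain reached 10 kb in every library, 4 did so in 9 libraries, and 63 of the 143 did so in only 1. Without the e15.5 library labelled nose 3 domains reached 10 kb in every library, and without the e13.5 maxillary process 1 did. A peak of some width was nevertheless called in all 10 libraries at 81 of the 143 domains, and at 16 the number of libraries with a peak was 5 or fewer. The e13.5 nose had the widest peak of 43 domains, the e15.5 library labelled mandibular of 36 and that labelled maxillary of 23.

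The 7 domains with 10 kb in 8 or more libraries were at Twist1, Tbx2, Tnrc18, Wnt5a, Prrx1 and Dnm3, the last with 2 of them. Twist1, a basic helix-loop-helix factor needed in the cranial neural crest, lay in a domain at chr12:33954637-33971465 that covered the whole gene. Its widths at e11.5 were 14656 bp in the medial nasal plate, 15004 bp in the lateral nasal plate, 14349 bp in the mandibular process and 14416 bp in the maxillary process. At e13.5 they were 15629 bp in the nose, 12732 bp in the mandibular process and 15930 bp in the maxillary process. At e15.5 they were 8534 bp in the library labelled nose, 13362 bp in that labelled mandibular and 13461 bp in that labelled maxillary. Width in the Twist1 domain thus varied little between regions, and the e15.5 library labelled nose stood below the other 9. The start site itself was less even. The 12732 bp peak of the e13.5 mandibular process did not reach it, and that library had no peak there. In the e15.5 library labelled nose the peak at the start site was 4665 bp wide.

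Tbx2, a T-box repressor, lay in a domain at chr11:85828219-85846204 that covered the whole gene. It was between 16968 and 17986 bp wide in the 4 libraries of e11.5, and between 13276 and 17502 bp in the 3 of e13.5. At e15.5 it was 16567 bp in the library labelled mandibular and 15537 bp in that labelled maxillary, and no peak was called in that labelled nose. The related gene Tbx3 had a domain at chr5:119660776-119688633 of more uneven width. Its widths at e11.5 were 10820 bp in the medial nasal plate, 7137 bp in the lateral nasal plate, 12466 bp in the mandibular process and 20653 bp in the maxillary process. At e13.5 they were 25655 bp in the nose, 8466 bp in the mandibular process and 20866 bp in the maxillary process, and at e15.5 they lay between 7993 and 16227 bp. Tbx2 thus varied less than Tbx3 in the 9 libraries with a Tbx2 peak, but had none in the e15.5 library labelled nose, whereas Tbx3 had a peak in all 10.

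Prrx1, a homeobox factor of mesenchyme, was between 8313 and 12296 bp wide in all 10 libraries. The Tnrc18 domain was 8836 bp wide in the e13.5 maxillary process and between 11422 and 15978 bp in the other 9. Wnt5a, a ligand of non-canonical Wnt signalling, had a domain that was narrowest in the e11.5 mandibular process (4413 bp) and widest in the e13.5 nose (14933 bp). Wnt5a was thus less even than Prrx1 and Tnrc18.

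Dnm3, which encodes a dynamin, gave its name to 4 separate domains within its body, none of which held a coding start site. The widest, at chr1:162206751-162228419, lay over Dnm3os, a non-coding RNA on the opposite strand that carries miR-199a-2 and miR-214. Its widths at e11.5 were 19688 bp in the medial nasal plate, 11775 bp in the lateral nasal plate, 15402 bp in the mandibular process and 11174 bp in the maxillary process. At e13.5 they were 14900 bp in the nose, 11790 bp in the mandibular process and 11673 bp in the maxillary process. At e15.5 they were 8650 bp in the library labelled nose, 12529 bp in that labelled mandibular and 13430 bp in that labelled maxillary. All but the e15.5 library labelled nose were above 10 kb at this miRNA host.

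**Figure D1:**
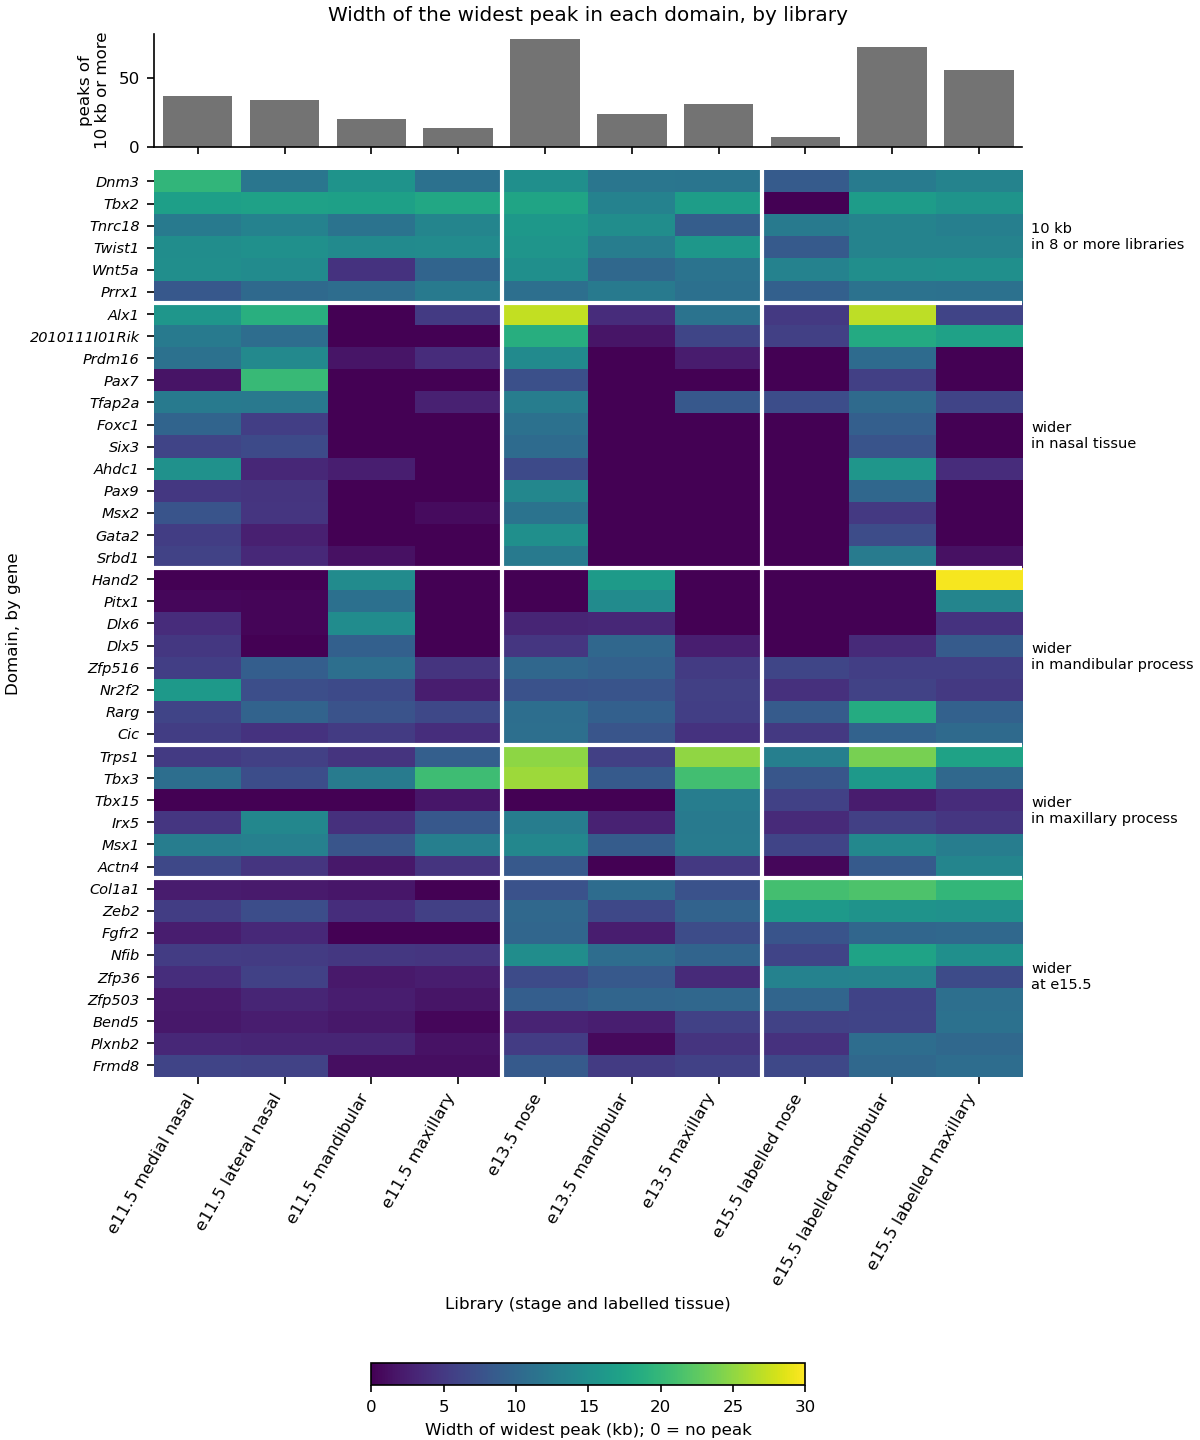
Width in kb (colour) of the widest peak in selected domains (rows, named by gene and grouped as shown at the right) in the 10 libraries (columns, by stage and labelled tissue), with the number of peaks of 10 kb or more per library in the bars above. The top rows are wide in nearly all columns, Hand2 and Pitx1 only in the mandibular libraries and the e15.5 library labelled maxillary, and Col1a1 at e15.5.

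The domains were mostly promoter domains. A start site of a protein-coding gene lay inside 114 of 143 domains (79.7%, exact 95% interval 72.2 to 86.0%), against 54.9% of the regions of 5 to 10 kb (52.0 to 57.7%), 44.2% of those of 2 to 5 kb and 17.7% of those under 2 kb. Wider regions meet more start sites by length alone, so these shares are given side by side and were not tested. Of the 114 domains, 103 held the start sites of 1 coding gene only. A further 13 domains lay inside a gene away from its start sites, and 16 between genes. A start site of a gene of any kind lay inside 126 domains (88.1%).

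Around the 5′ end of the gene the domains ran mainly in the direction of transcription. In the 82 domains that held the annotated 5′ end, the median extent was 9201 bp past it in the direction of transcription and 3287 bp before it, and 69 of the 82 (84.1%) reached farther past it than before it. Regions of 5 to 10 kb were alike in this respect, with 402 of 503 (79.9%). At 27 domains the whole gene was covered, among them Id2, Id3, Msx1, Msx2, Pitx1, Six2, Foxc1, Gata2, Hand2, Tbx2, Tbx3, Twist1 and Col1a1. At short genes much of the extent past the 5′ end lay beyond the gene. It was 13795 bp at Twist1, a gene of 2159 bp, and 17946 bp at Hand2, a gene of 3651 bp. At Col1a1 the domain began 4657 bp before the gene and ended just past its 3′ end. Longer genes were covered at the 5′ end only, as at Trps1, where the domain took 22916 bp of the first part of a gene of 235712 bp. The other 13 of the 82 lay more before the 5′ end, as at Junb (8034 bp before and 4234 bp past it) and Setd1b (10124 and 1855 bp), where the domain also held a start site of Rhof. Among these 13 were 3 histone gene clusters, where the domain covered neighbouring histone genes.

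**Figure D2:**
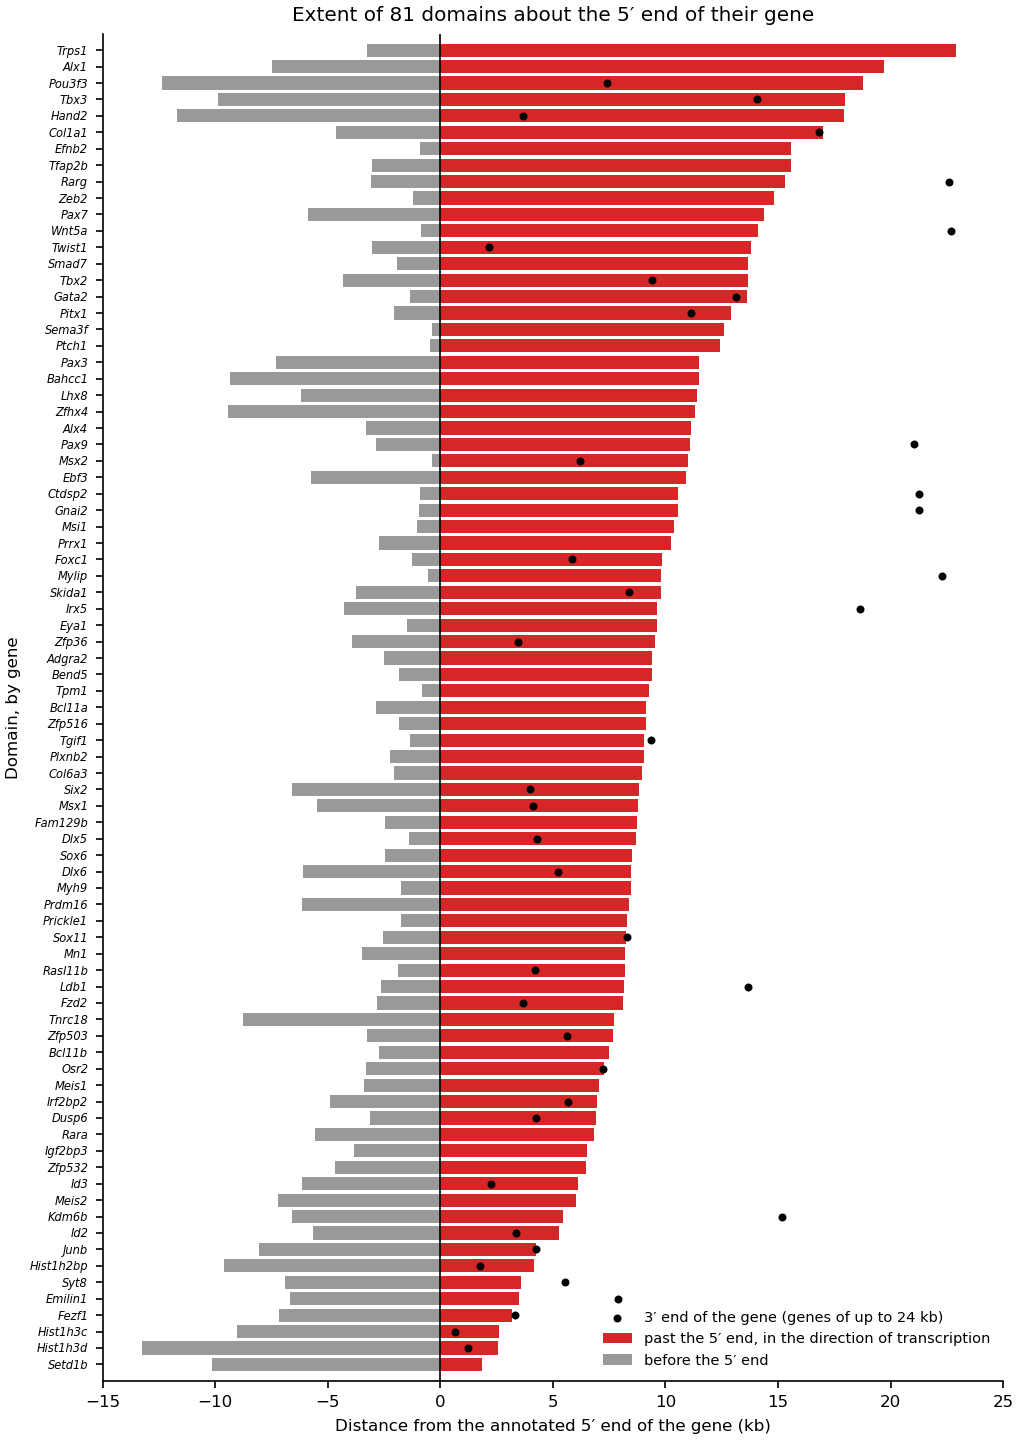
Extent in kb of 81 of the 82 domains that held the annotated 5′ end of their gene, before it (grey, negative) and past it (red, positive), with dots at the 3′ end of genes of up to 24 kb. In 68 of the 81 the red part is the longer, and a dot within the red bar marks a gene covered to its end.

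Genes of transcription factors were frequent among the domain genes. Among domains with a coding start site, 58 of 114 (50.9%, exact 95% interval 41.3 to 60.4%) held that of a gene whose symbol belongs to a transcription factor family, against 14.0% of the regions of 5 to 10 kb with a coding start site, 6.55% of those of 2 to 5 kb and 6.05% of those under 2 kb. Among the 103 domains with 1 coding gene the share was 53.4%, against 14.4% in the class of 5 to 10 kb, so the share was as high where a region held no second gene. The families were taken from symbols and hold a few genes that do not bind DNA, such as Zfp36, an RNA-binding protein, and Id2 and Id3, which block helix-loop-helix factors. CpG density also differed by width class. The domains had a median of 24.4 CpG per kb, against 17.4 for regions of 5 to 10 kb, 16.9 for 2 to 5 kb and 13.2 for those under 2 kb. Domains with a coding start site had a median of 27.2, and those without one 14.1, which for the class of 5 to 10 kb were 27 and 13.3. Compared like with like, domains and regions of 5 to 10 kb thus lay close together in CpG density.

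**Figure D3:**
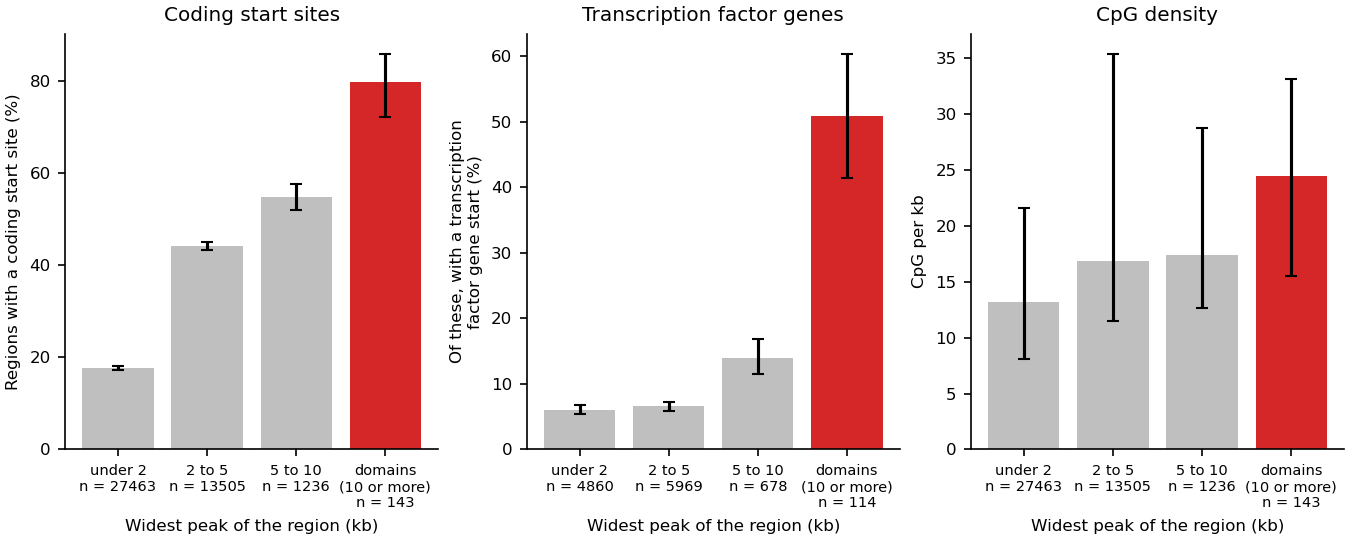
Share of regions with a coding start site (left), share of these with a start site of a transcription factor gene (middle; bars with exact 95% intervals) and median CpG per kb (right; bars with quartiles), by the widest peak of the region in kb. The share of domains with a transcription factor gene is 50.9%, against 14.0% in the class of 5 to 10 kb.

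The gene lists below were chosen with earlier results of these data known, so their counts are descriptions. Of 21911 protein-coding genes, 128 (0.584%) had a start site in a domain. Regulators of mesenchyme had 20 of 43 and frontonasal patterning genes 7 of 9, among them Alx1, Alx4, Pax3, Pax7, Six2 and Eya1. Jaw patterning genes had 8 of 20, among them Hand2, Pitx1, Dlx1, Dlx2, Dlx5, Dlx6 and Lhx8. Genes of differentiated tissue had fewer. Cartilage genes had 3 of 16 (Sox5, Sox6 and Col2a1), bone genes 2 of 14 (among them Dlx5), and fibrillar collagen and matrix genes 2 of 27 (Col1a1 and Col6a3). No member was in a domain for the lists of tendon (6 genes), epithelium (17), endothelium (14), glia and melanocyte (10), blood (11), Hox (39), Notch (12) and housekeeping genes (20). At the share of all coding genes (0.584%), a list of this size would mostly have no member in a domain. These zeros therefore do not set the lists apart from other genes. Housekeeping genes had peaks but none of 10 kb. Epithelial genes had peaks at up to 12 of 17 start sites in a library, with none of 10 kb.

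Signalling pathways were represented by few members each. TGF-beta and BMP genes had 4 of 24, which were Id2, Id3, Smad7, an inhibitor of receptor signalling, and Tgif1, a corepressor. Retinoic acid genes had 3 of 13, the receptors Rara and Rarg and the degrading enzyme Cyp26b1. Wnt genes had Wnt5a and the receptor Fzd2 of 24, FGF genes the receptor Fgfr2 and the feedback inhibitor Dusp6 of 16, and Hedgehog genes the receptor and target Ptch1 of 12. Fzd2 was nearly constant, between 7501 and 10818 bp in the 10 libraries, and so was Id3, between 7077 and 12283 bp. The Rarg domain was 18404 bp in the e15.5 library labelled mandibular and between 5593 and 10860 bp in the other 9. Guidance genes had 3 of 24 (Efnb2, Sema3f and Plxnb2), AP-1 and immediate early genes 2 of 23 (Junb and Zfp36), the growth programme 2 of 20 (Grb10 and Igf2bp3), and actin and cytoskeleton genes 2 of 18 (Myh9 and Tpm1). Skeletal muscle genes had Pax3 and Pax7 of 14, and olfactory and neuron genes Six3, Ebf3 and Dlx5 of 21. All of these but Six3 are also on one of the patterning or mesenchyme lists. The domains of Efnb2 (16476 bp in the e13.5 nose), Sema3f (12959 bp), Myh9 (10216 bp) and Tpm1 (10106 bp) reached 10 kb in 1 library each, the last 3 in the e15.5 library labelled mandibular.

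Domains wider at e15.5 than at e11.5 in every library of those stages numbered 19 of 143 (13.3%). The same held for 3.01% of all merged regions and for 12.6% of those of 5 to 10 kb, so the share was near that of regions of similar size. Some of the 19 met the width rule only through an e15.5 library, as Col6a3 did. The stages differ in tissue as well as in age, and fewer cells with a wide peak and a narrower peak in each cell cannot be told apart in bulk tissue. The count rests on the e15.5 library labelled nose, which had the fewest wide peaks. Without it, 50 of the 143 domains lay wholly above e11.5, against 14.1% of all merged regions and 41.2% of those of 5 to 10 kb.

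The largest difference was at Col1a1, the main collagen of bone, tendon and skin (chr11:94931567-94953214). Its widths at e11.5 were 2296 bp in the medial nasal plate, 2207 bp in the lateral nasal plate and 1797 bp in the mandibular process, with no peak in the maxillary process. At e13.5 they were 7526 bp in the nose, 10628 bp in the mandibular process and 7527 bp in the maxillary process. At e15.5 they were 20983 bp, 21573 bp and 19823 bp in the libraries labelled nose, mandibular and maxillary. Widths of the 3 stages did not overlap, and the mean at e15.5 exceeded that at e11.5 by 19218 bp. At Col1a1 the e15.5 library labelled nose was as wide as the others, although it had the fewest wide peaks.

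Trps1, a zinc finger repressor whose human gene is mutated in tricho-rhino-phalangeal syndrome, had a domain over its 5′ part (chr15:50867548-50893739). Its widths at e11.5 were 5143 bp in the medial nasal plate, 5653 bp in the lateral nasal plate, 4508 bp in the mandibular process and 9136 bp in the maxillary process. At e13.5 they were 24941 bp in the nose, 5653 bp in the mandibular process and 24986 bp in the maxillary process. At e15.5 they were 12909 bp, 23903 bp and 17334 bp in the libraries labelled nose, mandibular and maxillary. The mandibular process of e13.5 thus stood with the e11.5 libraries, whereas nose and maxillary process were already wide.

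Zeb2, a zinc finger repressor of the neural crest, was between 3934 and 7119 bp at e11.5, between 6529 and 10140 bp at e13.5 and between 15222 and 16073 bp at e15.5. Nfib, of the nuclear factor I family, was between 6105 and 17391 bp at e15.5 and between 4646 and 5300 bp at e11.5, the lowest e15.5 value being in the library labelled nose. The domain at Fgfr2, an FGF receptor mutated in human craniosynostosis, was between 7792 and 10142 bp at e15.5. At e11.5 it was 2402 and 3407 bp in the medial and lateral nasal plates, with no peak in either jaw process. Some start sites of Fgfr2 lay outside this domain. Over all of them, the widest e11.5 peak was 5560 bp in the medial nasal plate. It was 5152 bp in the lateral nasal plate and 3420 bp in the maxillary process, and the mandibular process had none. Only Col1a1 among these codes for structural matrix.

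Others of these 19 domains were at Zfp36, Zfp503, Bend5, Plxnb2 and 2010111I01Rik. The zinc finger gene Zfp503 was between 5984 and 10930 bp at e15.5 and between 1719 and 3135 bp at e11.5, and the semaphorin receptor Plxnb2 between 4313 and 10712 bp at e15.5 and between 1522 and 3286 bp at e11.5. Col6a3, a chain of type VI collagen, was 4663, 10996 and 5744 bp wide in the e15.5 libraries labelled nose, mandibular and maxillary, and 1165 to 4442 bp at e11.5, so that its lowest e15.5 and highest e11.5 widths lay close together. The domain called by Frmd8 holds the non-coding RNA Neat1 and was between 6548 and 10776 bp at e15.5, against 1082 to 6099 bp at e11.5. The domains of this comparison thus ranged from a gap of over 10 kb between e15.5 and e11.5 at Col1a1 to a near overlap at Col6a3.

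Domains wider at e11.5 than at e15.5 in every library numbered 4 of 143 (2.8%), against 0.904% of all merged regions and 4.05% of those of 5 to 10 kb. They were at Twist1, Tbx2, Skida1 and a histone gene cluster. At Twist1 the mean difference was -2821 bp, with 13362 and 13461 bp in the e15.5 libraries labelled mandibular and maxillary, 8534 bp in that labelled nose and 14349 bp in the lowest e11.5 library. The cluster at chr13:21777872-21791641 holds start sites of Hist1h2bp, Hist1h1b, Hist1h3i and Hist1h2an, histone genes that are used in S phase. It was between 3935 and 10860 bp wide at e15.5 and between 11183 and 13770 bp at e11.5. These genes have near-identical copies, and how reads shared between copies were placed is not given in the sources used here. Skida1 was between 5659 and 7042 bp at e15.5 and between 8131 and 13533 bp at e11.5. Without the e15.5 library labelled mandibular, the number of such domains was 14. The e13.5 libraries, whose labels and names matched, lay above all e11.5 libraries at 18 of 143 domains (12.6%), against 2.14% of all merged regions and 9.71% of those of 5 to 10 kb. Without the e13.5 mandibular process this number was 37. For this omission and that of the e15.5 library labelled mandibular, shares over all merged regions were not computed. No domain was wider at e11.5 than in all 3 e13.5 libraries, which held for 0.262% of all merged regions and 0.728% of those of 5 to 10 kb. This comparison was added after the data were seen and shares its e11.5 libraries with the one before.

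**Figure D4:**
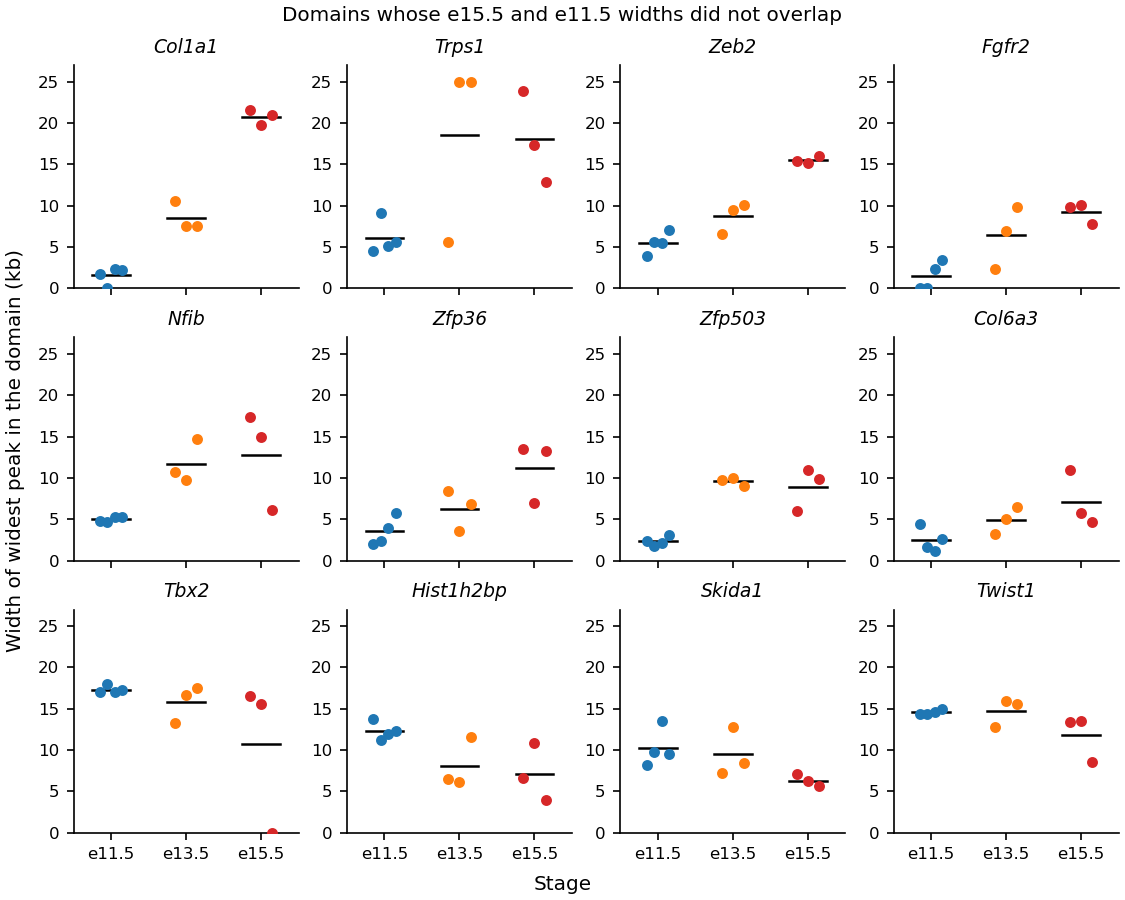
Width in kb of the widest peak in 12 domains whose e15.5 and e11.5 widths did not overlap, by stage, with a dot per library and a bar at the mean. Col1a1 lies between 19823 and 21573 bp at e15.5, above all earlier libraries, and the 4 genes of the bottom row lie lower at e15.5 than at e11.5.

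Nasal and jaw tissue were compared at e11.5 and e13.5, with 3 nasal libraries (medial and lateral nasal plate, nose) and 4 jaw libraries (mandibular and maxillary process). Domains wider in nasal than in jaw tissue in every library numbered 34 of 143 (23.8%), against 10.8% of all merged regions and 31% of those of 5 to 10 kb, so the domains did not stand out from regions of similar size. Some of the 34 met the width rule only through a nasal library, as Foxc1 and Gata2 did through the e13.5 nose. Their share is therefore a description only. The nasal lists held 20492 to 25941 peaks and the jaw lists 6571 to 10753, and the size of the list and the region cannot be told apart. With the 6571 peaks of highest −log10 q taken from every library, 21 of 115 domains were wider in nasal tissue and 3 in jaw tissue. Without the e13.5 maxillary process the number was 57. With the e15.5 libraries taken in by their labels it was 1. Shares over all merged regions were not computed at these settings, equal peak numbers among them. Their counts therefore cannot be set against regions of similar size.

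Alx1, a homeobox factor whose loss gives a cleft midface in humans and mice, had the largest nasal difference (chr10:103010494-103037692). Its widths were 15729 bp in the medial nasal plate, 18937 bp in the lateral nasal plate and 27199 bp in the nose of e13.5. In the mandibular process no peak was called at e11.5 and 3825 bp at e13.5, and the maxillary process had 5044 bp at e11.5 and 11385 bp at e13.5. The mean nasal width exceeded the mean jaw width by 15558 bp, and the maxillary process of e13.5 stood between nose and mandibular process. The related Alx4 was between 13798 and 14440 bp in the nasal libraries and between 6829 and 8281 bp in the jaw libraries. Alx4 was thus even within the jaws, where Alx1 ranged from no peak to a width above that of Alx4 in the e13.5 maxillary process.

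Pax7, a paired box factor of nasal neural crest and muscle precursors, showed another pattern (chr4:139819172-139839403). Its width was 1530 bp in the medial nasal plate, 20232 bp in the lateral nasal plate and 7379 bp in the e13.5 nose, with no peak in any of the 4 jaw libraries. Its relative Pax3 was between 9446 and 17873 bp in nasal tissue, and had no peak in the e11.5 mandibular process, 3083 bp in the e13.5 mandibular process, 2700 bp in the e11.5 maxillary process and 9886 bp in the e13.5 maxillary process. Pax7 was thus widest in the lateral nasal plate, and Pax3 overlapped between the regions through the e13.5 maxillary process.

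Foxc1, a forkhead factor of head mesenchyme, was 9611, 5581 and 11136 bp wide in the medial nasal plate, lateral nasal plate and nose, with no peak in the jaw libraries. Six3, a homeobox factor of the forebrain, eye and olfactory placode, was 6194, 6742 and 10541 bp wide in the same libraries, also with no jaw peak, and at equal peak numbers it had no peak in any of them. Prdm16, a zinc finger factor needed for palate closure in mice, was between 11133 and 14325 bp in nasal tissue and between 0 and 3837 bp in the jaws. Tfap2a, an AP-2 factor of the neural crest, was between 12123 and 12771 bp in nasal tissue and had no peak in either mandibular library, with 2766 and 8214 bp in the maxillary process of e11.5 and e13.5. Ahdc1 was between 3391 and 15155 bp in nasal tissue and between 0 and 2565 bp in the jaws, and at equal peak numbers its difference was -641 bp, so that its direction was lost. Gata2, Pax9 and Msx2 likewise had a peak in all 3 nasal libraries, and in the jaws only Msx2 had one, of 889 bp in the e11.5 maxillary process. The domains at Foxc1, Six3, Gata2 and Pax9 thus had nasal peaks without a counterpart in the jaw lists.

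At epithelial genes, 4 of 17 had a peak at a start site in either nasal plate and 12 in the nose of e13.5, against 0 in each of the 4 jaw libraries. At olfactory and neuron genes the numbers were 7, 4 and 7 of 21 in nasal tissue and between 0 and 4 in the jaws. Start sites of other lists also had more peaks in the longer nasal lists, with 30, 30 and 38 of 43 mesenchyme regulators in nasal tissue against 22 to 33 in the jaws, and 18 to 20 of 20 housekeeping genes against 13 to 19. None of the epithelial genes lay in a domain, and the part of these cell types in the widths was not tested.

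Domains wider in jaw than in nasal tissue numbered 3 of 143 (2.1%), against 0.026% of all merged regions and 0.0809% of those of 5 to 10 kb. They were at Lhx8, Lrba and Nbea. Without the e11.5 maxillary process there were 5, without the e13.5 nose 6, and with the e15.5 libraries taken in by label 1. The nasal widths of these 3 domains at e11.5 and e13.5 were all below 10 kb. They therefore met the width rule through other libraries, and their share is a description only. Lhx8, a LIM homeobox factor of the palate, teeth and basal forebrain, had 2528, 6366 and 6953 bp in the medial nasal plate, lateral nasal plate and nose. In the jaws it had 9366 and 11425 bp in the mandibular process of e11.5 and e13.5, and 10950 and 17608 bp in the maxillary process. The domain at Lrba also held the start site of Mab21l2, which lies within that gene, and the domain at Nbea that of Mab21l1. The Mab21l2 domain was between 3395 and 7044 bp in nasal tissue and between 12415 and 17185 bp in the jaws. The Mab21l1 domain was between 2969 and 7638 bp in nasal tissue and between 10212 and 12664 bp in the jaws. Both Mab21l genes thus lay in domains that were wider in the jaws, each within a different host gene.

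**Figure D5:**
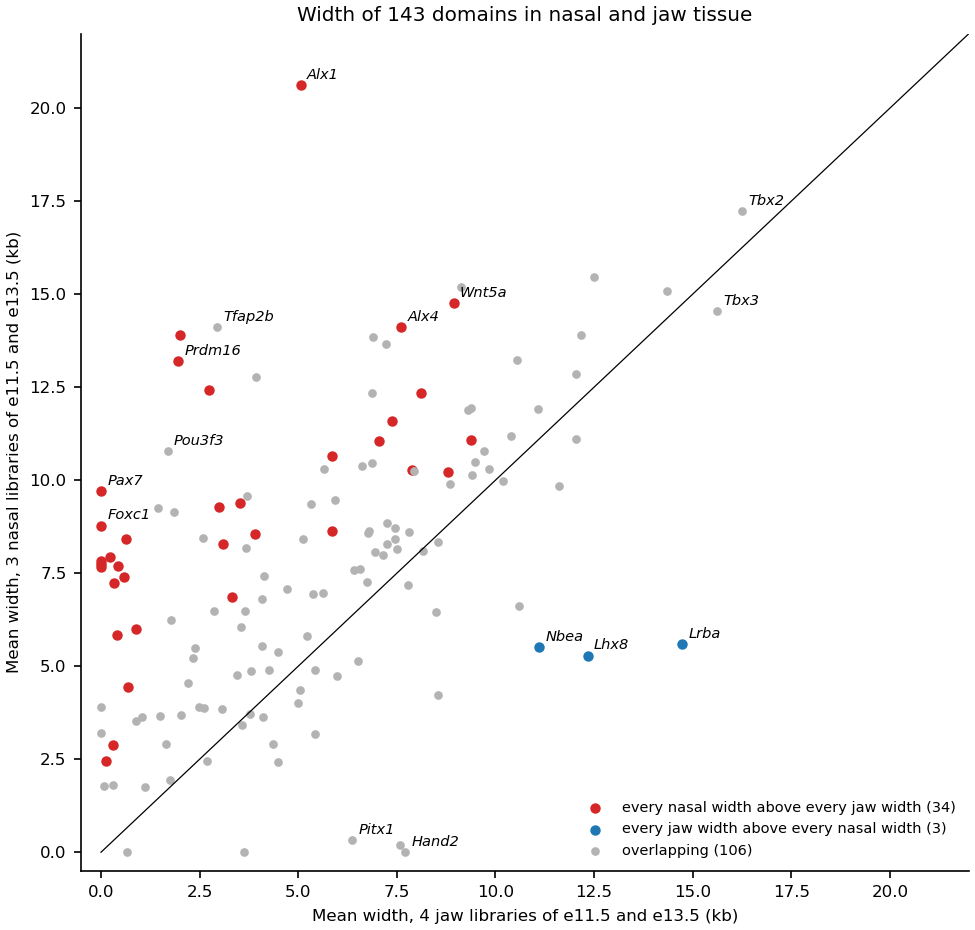
Mean width in kb of each of the 143 domains in the 3 nasal libraries (vertical axis) and the 4 jaw libraries (horizontal axis) of e11.5 and e13.5, with the line of equality. Red points are the 34 domains with every nasal width above every jaw width, blue points the 3 with the opposite, and Hand2 and Pitx1 lie on the horizontal axis because only mandibular libraries had wide peaks there.

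Within the jaws, mandibular and maxillary process could be compared with 2 libraries each, a comparison added after the data were seen. Domains wider in the mandibular process numbered 17 of 143 (11.9%), against 2.05% of all merged regions and 11.6% of those of 5 to 10 kb. Domains wider in the maxillary process numbered 19 (13.3%), against 2.03% and 6.31%. Some domains of both counts met the width rule only through the process in which they were wider, as did Dlx6 (mandibular) and Tbx15 (maxillary). Both shares are therefore descriptions only. The mandibular count was 56 without the e13.5 maxillary library, 41 without the e11.5 mandibular library and 29 without the e13.5 mandibular library. The maxillary count was 75 without the e11.5 maxillary library, 33 without the e11.5 mandibular library and 38 without the e13.5 mandibular library. With 2 libraries a group, the counts describe these 4 libraries only.

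Hand2, a helix-loop-helix factor that gives the lower jaw its distal identity, had the widest peak of all domains (chr8:57309304-57338928). It was 14500 bp wide in the e11.5 mandibular process and 16373 bp in that of e13.5, and no peak was called in the maxillary process or in nasal tissue at either stage. In the e15.5 library labelled maxillary it was 29625 bp, with no peak in the other 2 of that stage. A second domain 806 bp away, between genes at chr8:57339735-57350400, was 10666 bp wide in the same e15.5 library and 2596 bp in the e11.5 mandibular process, with no peak in the other 8. Hand2 was thus called in 3 of 10 libraries and was above 10 kb in each of the 3.

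Pitx1, a homeobox factor of the lower jaw and hindlimb, was 11041 and 14447 bp wide in the mandibular process of e11.5 and e13.5, had no peak in the maxillary process, and was 13703 bp wide in the e15.5 library labelled maxillary. Its nasal peaks were at most 551 bp. The Dlx genes, homeobox factors that set the upper and lower part of the jaws, were less constant. The domain over Dlx1 and Dlx2 was 18594 bp wide in the e11.5 mandibular process and 3884 bp in that of e13.5, against 7855 bp in the e11.5 maxillary process and no peak in that of e13.5. The Dlx6 domain was 14611 and 3338 bp wide in the mandibular process of e11.5 and e13.5, and the Dlx5 domain 9161 and 10058 bp. The 9161 bp peak did not reach a start site of Dlx5. In the maxillary process Dlx6 had no peak at either stage, and Dlx5 had none at e11.5 and 2483 bp at e13.5. The Dlx5 and Dlx6 domains are 1591 bp apart, and at e11.5 Dlx6 was the wider of the pair. No other library of e11.5 or e13.5 had 10 kb at any of Hand2, Pitx1, Dlx5 and Dlx6.

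In the maxillary process the domains wider at both stages included Trps1, Tbx3, Msx1, Tbx15 and Irx5. Tbx3 and Trps1 had the largest differences there. Msx1, a homeobox factor whose loss gives a cleft palate in mice, was 7960 and 8733 bp wide in the mandibular process of e11.5 and e13.5, against 12943 and 12538 bp in the maxillary process. Tbx15, a T-box factor of skull and skin mesenchyme, had no peak in the mandibular process or in nasal tissue of e11.5 and e13.5, and was 1843 and 12707 bp wide in the maxillary process. Ebf3, a helix-loop-helix factor, was 16644 bp wide in the e13.5 maxillary process, against no peak in that of e11.5 and at most 5970 bp in the other 8 libraries. Zfhx3, a large homeobox factor with zinc fingers, was widest in the e11.5 lateral nasal plate (24522 bp) and was between 1346 and 11123 bp in the other 9. Single libraries therefore set the width of several domains, as at Ebf3 and Zfhx3.

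Domains without a coding start site numbered 29, and 14 of them overlapped a non-coding gene. Beside that over Dnm3os, the widest of these was the domain nearest to Camk1g (chr1:193504568-193523680), which holds Mir205, a miRNA of epithelia, and lies 134270 bp from the nearest coding start site. It was 19113 bp wide in the e15.5 library labelled maxillary and 8578 bp in that labelled mandibular, 3951 bp in that labelled nose, between 4221 and 4790 bp in the 3 nasal libraries of e11.5 and e13.5, and had no peak in the jaws except 2717 bp in the e13.5 maxillary process. Its libraries are those in which start sites of epithelial genes had peaks, except the e13.5 maxillary process with 0 of 17. The number was 12 in the e13.5 nose and the e15.5 libraries labelled mandibular and maxillary. It was 4 in the e15.5 library labelled nose and in either nasal plate. With 12 of these genes the e13.5 nose had 4301 bp, and with 4 the medial nasal plate had 4790 bp. The part of epithelial content in the width was not tested. The domain with Mir140, a cartilage miRNA, inside its host Wwp2 (chr8:107540207-107559223) also held an internal start site of Wwp2. It was 18787 bp wide in the e13.5 nose and 16376 bp in the e15.5 library labelled mandibular, and at most 5316 bp in the other 8. The same 2 libraries had peaks at the start sites of 11 and 13 of 16 cartilage genes, against 0 to 7 in the other 8. Sox5, a cartilage regulator and itself on that list of 16, was also above 10 kb only there, at 10781 and 15601 bp. The domain at Col2a1, the main cartilage collagen, reached 11206 bp in the e15.5 library labelled mandibular and was between 1001 and 5975 bp in the other 9. In the e13.5 nose the domain had 2979 bp, but a peak of 6841 bp outside it lay over another start site of Col2a1. The widths at Mir140 and Sox5 were thus largest in the 2 libraries with the most cartilage genes that had a peak. These 2 also had the most peaks of 10 kb or more of all libraries (78 and 72). The part of cartilage content in the widths was not tested.

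The domain with Mir125b-1 (chr9:41577764-41592386), 382201 bp from the nearest coding start site at Sorl1, was in contrast nearly constant, between 8598 and 14353 bp in all 10 libraries and above 10 kb in 7. A domain over H19, the imprinted non-coding RNA that holds Mir675, was between 3128 and 11404 bp in all 10. Malat1 and Neat1, abundant nuclear RNAs, had domains of at most 11823 and 10776 bp. At Poc1a a domain inside the gene was 14949 bp wide in the e13.5 nose and at most 7223 bp elsewhere.

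Neighbouring domains were common. Of the 143, 7 pairs were less than 5 kb apart, the closest at Wnt5a (249 bp), Rara (506 bp), Dnm3 (545 bp), Hand2 (806 bp) and Twist1 (811 bp). Where a library had a peak in a domain, it had more than 1 there in 519 of 1228 cases, with up to 6. The widest peak can thus be cut by a short gap, and with peaks of a library up to 1 kb apart joined, 235 domains of 10 kb or more were found and 3 of them had 10 kb in every library. The number of domains thus depends on how broken peaks are treated, while the share over a coding start site was 73.6% after joining.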

How the data were processed

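H3K27ac ChIP-seq was done on wild-type mouse facial tissue of 3 stages, and 10 broad peak lists, called per sample and not pooled, were analysed. Input samples were left out. Per the submitters' processing notes, the tools were MACS2 2.2.4, BWA 0.7.7 and SAMtools 0.1.19 and the build mm10. The settings for the mouse files are not given in the sources used here. The deposited lists hold, beside positions, 4 values a peak: −log10 q, −log10 p, the fold enrichment and a score, which the authors' peak calling computed within each list. Only −log10 q was used here for filtering, and the score and fold enrichment were not compared between libraries. Read depth is unknown, so no interval can be given for a width.

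Peaks outside the autosomes, X and Y were dropped (44 peaks). Those of at least 10000 bp were merged where they overlapped by 1 bp, and the width of a domain in a library was that of the widest peak overlapping it, or 0. Background regions were all peaks merged in the same way. Genes and start sites came from GENCODE M21, and CpG and promoters from GRCm38.p6, within whose chromosome lengths the last peak fell in 208 of 208 cases. A domain was called by the coding gene with a start site inside that shared most bases with it, otherwise by the gene overlapped, otherwise by the nearest. Groups were compared by whether their widths overlapped, with no test, since the rule used the widths and each tissue and stage had 1 library. The members and gene lists were chosen with earlier results of these data known. Genes named in the text were the 12 widest domains, up to 10 per direction by stage and 8 by region among domains with no overlap, up to 4 per gene list, the 5 widest without a coding start site and those at the threshold. Other domains, among them Pitx1, Msx1, Tbx15, Irx5, Gata2, Pax9, Msx2, Alx4, Tnrc18, Prrx1, Setd1b, Poc1a and those at H19, Neat1 and Malat1, were picked once their values had been seen. The comparisons of mandibular with maxillary process and of e13.5 with e11.5, and the run without the e15.5 libraries, were also added then. Alternatives were other width thresholds, a stricter q, equal peak numbers, joined peaks, scaled widths, start sites of all genes and leaving out each library. Scripts were tested on simulated data and used Python 3.11.15, pandas 2.3.3, scipy 1.17.1 and bedtools 2.31.1. A few items in the lists are not reported here.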

Additional observations from a re-analysis of the deposited data

Results flagged for a closer look

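In 18 of the 137 groups of 4 libraries looked at (13.1%), 1 library stood apart from the other 3 by Dixon's criterion (the gap to the nearest library as a share of the range, at the 95% critical value), which chance gives in about 1 of 20 groups of independent values. That rate is no yardstick here, since the domains were chosen for a wide peak in these libraries and several groups hold 3 libraries without a peak. Among the e11.5 libraries, the lateral nasal plate was high at Pax7 (20232 bp) and Zfhx3 (24522 bp) and the mandibular process at Hand2 (14500 bp), whereas the maxillary process was low at the Dnm3 domain that starts at position 162012869 of chromosome 1 (6791 bp) and at Plxnb2 (1522 bp).

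Among the 4 jaw libraries (e15.5 left out), the e13.5 maxillary process was the high one at Ebf3 (16644 bp), Tfap2b (11776 bp), Six2 (5763 bp), Prickle1 (3037 bp), the Mir205 domain nearest to Camk1g (2717 bp), Myh9 (1259 bp) and Junb (491 bp). The e11.5 mandibular process was the high one at the Dnm3os domain (15402 bp), Col2a1 (5547 bp), Sox5 (3206 bp) and Ahdc1 (2565 bp). The e13.5 mandibular process was low at Id3 (8313 bp), and the e11.5 maxillary process was low at Ptch1 (6148 bp). Where the other 3 libraries had no peak, as at Ahdc1, Junb, Myh9 and Six2, any called peak meets the criterion.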

How the results depend on the processing

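The threshold set the counts. At a minimum width of 8000 bp there were 293 domains, of which 139 reached that width in 1 library and 7 in every library, 48 were wider at e15.5, 12 at e11.5, 34 at e13.5, 82 in nasal tissue, 36 in the mandibular and 31 in the maxillary process. At 12.5 kb there were 67, of which 30 reached it in 1 library, 8 were wider at e15.5, 6 at e13.5, 16 in nasal tissue and 9 in the mandibular process. They held 37 genes of the lists, and 88.1% lay over a coding start site, as did 88.1% of the main domains over a start site of any gene. With −log10 q of at least 2, 12 were wider at e15.5. At equal peak numbers, 8 were wider at e11.5 and 21 in nasal tissue, and the nasal minus jaw difference at Ahdc1 was -641 bp. With peaks up to 1 kb apart joined there were 235 domains, of which 39 were wider at e15.5, 10 at e11.5, 74 in nasal tissue, 29 in the maxillary process and 3 reached 10 kb in every library, at a median of 20.2 CpG per kb. With widths divided by each library's 95th percentile, 12 were wider at e11.5, 40 in the maxillary process and 9 at e13.5. With the e15.5 libraries taken in by label, 1 was wider in nasal and 1 in jaw tissue. Without the e15.5 libraries, 3 reached 10 kb in every library.

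Leaving out each library in turn gave 125 to 143 domains, of which 16 to 50 were wider at e15.5, 4 to 14 at e11.5, 13 to 37 at e13.5, 26 to 57 in nasal tissue, 3 to 6 in jaw tissue, 16 to 56 in the mandibular and 17 to 75 in the maxillary process, and 0 to 3 reached 10 kb in every library. The share over a coding start site stayed between 78.7 and 82.8%. Among these alternatives, shares over all merged regions were computed only for the e15.5 comparison without the library labelled nose. Of the differences at single named domains, 309 values moved by less than the spread between libraries, 15 by more, and 1 (Ahdc1) changed sign. No paired analysis was possible because the counts and differences come from no test, and each tissue and stage had 1 library, so that replicate numbers link no samples. With unknown depth, no peak cannot be told from a peak too weak to call, and the shortest lists limit the jaw and e15.5 nose-labelled widths most.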
